A study of Mus musculus with 14 samples.

Results

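Pou3f1, Sall2, Zic2, Zic5, Sox3, Sox11 and Utf1 are 7 genes for nuclear factors of the early epiblast and the first neural tissue. They were chosen by name as a set of formative epiblast and early neural factors, and all 7 were found among the 24054 genes of the tables. Their RNA was followed in 14 mouse libraries of 6 groups. In d0con and d3con 1 allele of Foxa2 had its coding region replaced by the fluorescent reporter H2B-Venus (Foxa2-Venus-KO/+). In d0ko and d3ko both alleles carried this replacement (Foxa2-Venus-KO/Foxa2-Venus-KO), so the controls were heterozygous and not wild type. Both genotypes were made in the embryonic stem cell (ESC) line IDG3.2, with clones C59 and C63 for con and C9 and C17 for ko. Genotype and clone can therefore not be told apart, and replicates 1 and 3 of a day 3 group shared a clone. The d0 groups (2 libraries each) were ESCs grown on feeder cells, kept without LIF for 1 day and sorted away from the red-fluorescent feeders. The d3 groups (3 libraries each) were cells after 3 days on Wnt3a-secreting feeders with 12 ng/ml Activin A, sorted for Venus. The d2-FVFn and d2-FVFp groups (2 libraries each) came from a single other line, T119, which carries a doxycycline-inducible Foxa2-Venus fusion in cells with a Sox17-Cherry reporter. T119 cells were grown without feeders in serum and LIF, were given 40 ng/ml doxycycline, and 48 hours later the cells without Venus (FVFn) and with Venus (FVFp) were separated by sorting.

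As background, pluripotent cells pass from the naive state of the blastocyst through a formative state before they can answer the signals that set up the germ layers. Pou3f1 and Zic2 are used as markers of that passage, and the same factors, with Sox3, Sox11, Zic5 and Sall2, are later found in the neural plate and neural progenitors. Utf1 is a chromatin-associated factor of undifferentiated cells and lies downstream of Oct4 (Pou5f1) and Sox2. Wnt and Activin signals, as used here, instead lead pluripotent cells toward mesendoderm and endoderm, in which Foxa2 is a pioneer factor.

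Levels are given in TPM (the share of all transcripts that come from a gene, scaled for gene length, so that genes can be compared). The libraries held 14142788 to 27278237 expected counts. Foxa2 was at 34.8 to 58.6 TPM in d3con and 0.11 to 0.19 TPM in d3ko, which follows the genotype labels, and at 2.01 to 2.99 TPM in d2-FVFn against 160 to 169 TPM in d2-FVFp. The summed level of 12 naive pluripotency markers was 1934 to 2201 TPM at day 0 and 111 to 172 TPM in d3con. In the 3 d3ko libraries this sum was 1710, 233 and 2207 TPM, so replicate 2 stood apart from the other two. The 12 endoderm markers summed to 1259 to 1847 TPM in d3con and 77.9 to 519 TPM in d3ko, with all 12 above 0 in d3con. In bulk libraries a smaller share of cells of a kind and less RNA per cell cannot be told apart. The con and ko libraries of a group were described in the study as biological replicates, and replicates 1 and 2 of these groups came from different clones. For the doxycycline libraries no separate cultures are named in the sources used here, so their p-values measure the spread between these libraries, which may be technical.

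The region before the start of transcription, from RefSeq (GRCm38.p6), was analysed for 4 of the 7 genes, Utf1, Zic5, Sox11 and Sall2, which had an entry in the table of windows used here. It is shown for Utf1, the factor with the largest change, and for Zic5 and Sox11, which rose with differentiation in both genotypes. Each run is the 250 bases directly before the annotated start, 5′ to 3′ on the strand of the gene, with CG dinucleotides in capitals. The window of Utf1 lies at chr7:139943606-139943855 on the plus strand, that of Zic5 at chr14:122465659-122465908 on the minus strand and that of Sox11 at chr12:27342719-27342968 on the minus strand.
Utf1: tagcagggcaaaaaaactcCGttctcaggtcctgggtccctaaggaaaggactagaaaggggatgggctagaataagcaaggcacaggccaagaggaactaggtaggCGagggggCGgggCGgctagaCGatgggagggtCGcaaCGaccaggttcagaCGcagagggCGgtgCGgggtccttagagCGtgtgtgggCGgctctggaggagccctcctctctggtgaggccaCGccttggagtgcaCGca
Zic5: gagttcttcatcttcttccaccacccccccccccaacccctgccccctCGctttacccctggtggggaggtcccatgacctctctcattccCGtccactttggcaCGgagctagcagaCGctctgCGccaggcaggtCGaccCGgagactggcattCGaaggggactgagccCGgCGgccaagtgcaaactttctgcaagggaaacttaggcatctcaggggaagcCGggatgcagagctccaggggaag
Sox11: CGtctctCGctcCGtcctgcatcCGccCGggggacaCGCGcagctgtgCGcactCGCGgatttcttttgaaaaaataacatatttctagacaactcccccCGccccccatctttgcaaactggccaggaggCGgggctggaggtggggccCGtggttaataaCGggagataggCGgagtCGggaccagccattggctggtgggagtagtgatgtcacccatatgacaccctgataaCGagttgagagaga
The window of Utf1 held 14 CG dinucleotides, that of Zic5 11 and that of Sox11 17, against a median of 6 and an upper quartile of 16 over all 32851 RefSeq windows of this length. Their GC content was 61.6%, 62.4% and 58.0%, against a median of 52.4%. Short sequences were searched on both strands of each window. The forkhead letters TGTTTAC occurred in 3.17% of all windows and the octamer ATGCAAAT in 1.60%. The Sox letters ATTGTT occurred in 9.42% of all windows. The TATA box, searched as TATAAA, occurred in 12.4%. None of these 4 was found in the windows of Utf1, Zic5 and Sox11. Sall2 has 2 annotated starts, and the upstream one (chr14:52328671-52328920, minus strand) held 0 CG dinucleotides and 1 match to the TATA box, 145 bases before the start. The other Sall2 window held 6 CG dinucleotides and no match. These matches describe the letters in the windows only.

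Utf1 (chromosome 7, 139943856 to 139945112, GRCm38) was by far the most abundant of the 7 in ESCs. Its level was 1505 and 1413 TPM in d0con, 1306 and 1170 TPM in d0ko, 965 and 915 TPM in d2-FVFn, and 1208 and 717 TPM in d2-FVFp. It fell to 31.6, 58.6 and 22.4 TPM in d3con but stood at 292, 103 and 707 TPM in d3ko. Every d3ko library thus lay above every d3con library and below every day 0 library, with replicate 2 the lowest in d3ko and the highest in d3con. In the day 0 libraries 99.5% to 99.7% of the genes lay below Utf1, against 75.8% to 87.6% in d3con and 92.6% to 99.2% in d3ko. Ordered by group mean, d0con (1459 TPM) led d0ko (1238 TPM), d2-FVFp (963 TPM), d2-FVFn (940 TPM), d3ko (367 TPM) and d3con (37.5 TPM). Only the steps from d0ko to d2-FVFp and from d2-FVFp to d2-FVFn joined groups whose libraries overlapped.

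Pou3f1 (chromosome 4, 124657646 to 124660655), a POU-domain factor that favours neural fates, was present in ESCs and highest in the Venus-negative doxycycline cells. It measured 31.4 and 33.2 TPM in d2-FVFn, 11.7 and 10.2 TPM in d2-FVFp, 19.1 and 6.27 TPM in d0con, and 8.14 and 9.15 TPM in d0ko. At day 3 it measured 0.39, 10.2 and 0.13 TPM in d3con and 0.88, 7.08 and 3.32 TPM in d3ko. Replicate 2 of d3con was 78.5-fold above replicate 3, and replicate 2 of d3ko was 8.05-fold above replicate 1. The d3con and d3ko libraries overlapped, as did those of d0con and d2-FVFp, while the other neighbours in the order of group means did not.

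The Zic genes encode zinc finger factors of the dorsal neural tube and its precursors. Zic5 (122459160 to 122465658) and Zic2 (122475384 to 122480328), which is altered in human holoprosencephaly, lie 9725 bases apart on chromosome 14 with 1 annotated gene between them. Zic2 was low in ESCs, with 0.50 and 0.33 TPM in d0con and 0.45 and 0.48 TPM in d0ko (10 to 19 reads per library). It reached 3.20, 9.45 and 4.47 TPM in d3con and 2.78, 8.0 and 2.03 TPM in d3ko. In the doxycycline series it measured 0.59 and 1.33 TPM in d2-FVFn and 0.41 and 0.27 TPM in d2-FVFp. All 6 day 3 libraries were therefore above all others, and the genotypes overlapped.

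Zic5 followed a similar course at day 3 but was also high in the doxycycline line. It measured 3.01 and 2.21 TPM in d0con and 1.99 and 2.32 TPM in d0ko. At day 3 it measured 8.05, 18.3 and 10.1 TPM in d3con and 8.12, 22.0 and 11.6 TPM in d3ko. In the doxycycline series the values were 12.2 and 14.7 TPM in d2-FVFn and 6.23 and 5.39 TPM in d2-FVFp. The d3ko, d2-FVFn and d3con groups, which led in this order by their means, overlapped, and all 3 lay above d2-FVFp and the day 0 groups.

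Sox3, an X-linked SoxB1 factor of neural progenitors (60891366 to 60893430), and Sox11, a SoxC factor of differentiating neural cells (chromosome 12, 27334268 to 27342718), were both low in ESCs on feeders. Sox3 measured 0.68 and 0.81 TPM in d0con, 0.34 and 0.77 TPM in d0ko, 5.35, 3.23 and 2.34 TPM in d3con, and 1.61, 4.31 and 1.08 TPM in d3ko. It measured 2.04 and 2.11 TPM in d2-FVFn and 2.89 and 2.99 TPM in d2-FVFp. All 4 groups outside day 0 of the Foxa2-Venus-KO cells lay above the day 0 groups, and d3con, d2-FVFp, d3ko and d2-FVFn each overlapped the next in the order of their means.

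Sox11 varied little within groups other than d3ko, where replicate 2 was 2.21-fold above replicate 3. It measured 2.96 and 2.85 TPM in d0con, 2.85 and 2.60 TPM in d0ko, 9.02, 10.5 and 7.42 TPM in d3con, and 12.9, 13.3 and 6.01 TPM in d3ko. In the doxycycline series it measured 7.93 and 9.31 TPM in d2-FVFn and 6.86 and 7.86 TPM in d2-FVFp. Its day 0 libraries were below all other libraries, and d3con and d3ko overlapped.

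Sall2 (chromosome 14, 52311177 to 52328670), a spalt-like zinc finger factor best known from the brain, was highest in the Venus-negative doxycycline cells. It measured 8.94 and 14.8 TPM in d2-FVFn and 4.36 TPM in both d2-FVFp libraries. At day 0 it measured 2.09 and 1.38 TPM in d0con and 1.89 and 1.16 TPM in d0ko. At day 3 it measured 4.38, 6.77 and 5.08 TPM in d3con and 1.76, 5.70 and 1.34 TPM in d3ko. The d3con libraries lay above all day 0 libraries, whereas d3ko replicates 1 and 3 lay within the day 0 range and replicate 2 lay within the d3con range.

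**Figure D1:**
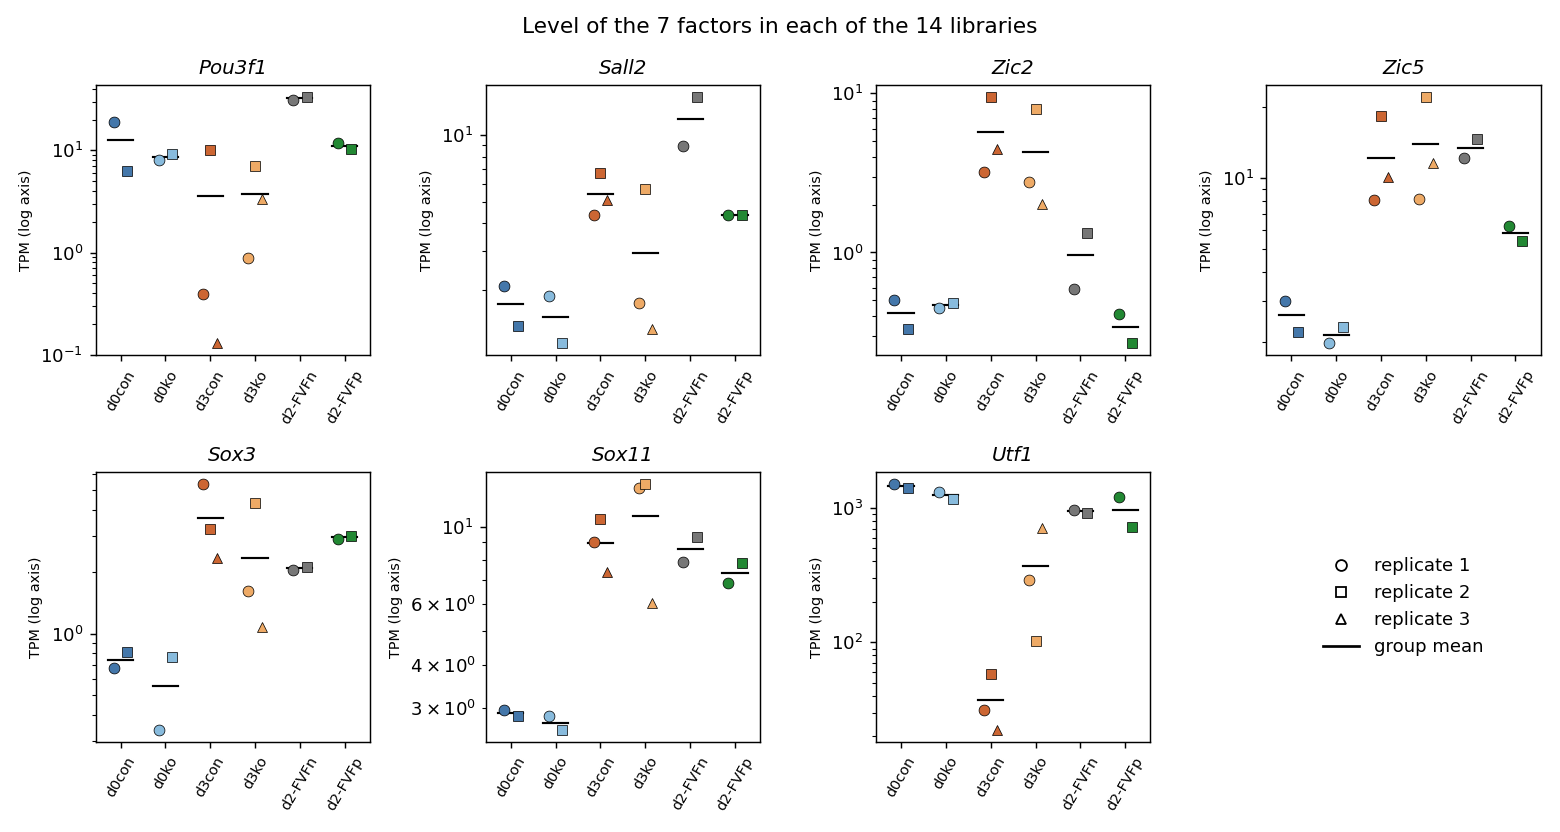
TPM on a log axis for each of the 7 factors in every library, by group (d0con, d0ko, d2-FVFn and d2-FVFp with 2 libraries, d3con and d3ko with 3), with 1 marker shape per replicate number and a line at the group mean. Utf1 falls from 1170 to 1505 TPM at day 0 to 22.4 to 58.6 TPM in d3con with d3ko in between, while Zic2, Zic5, Sox3 and Sox11 lie higher at day 3 than at day 0.

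The first comparison asked how the factors move when cells with an intact Foxa2 allele differentiate. Of the 7 factors, 4 rose (Zic2, Zic5, Sox3 and Sox11) and 1 fell (Utf1) from d0con to d3con, at an adjusted p under 0.05 and a change of over 2-fold. Among all 13899 genes tested 35.2% were called, 20.6% higher and 14.6% lower. The log2 fold change of Utf1 was -5.49 with an SE of 0.72 (edgeR, adjusted p = 0.0005372), a 45.0-fold lower level. No library of d3con overlapped d0con for 6 of the 7 factors, with 5 higher and Utf1 lower, as held for 45.5% and 29.2% of all genes tested. Zic2 rose 11.7-fold (log2 3.55, SE 0.75, adjusted p = 0.00419) and Zic5 4.0-fold (log2 2.0, SE 0.49, adjusted p = 0.00818). Sox3 rose 4.30-fold (log2 2.10, SE 0.72, adjusted p = 0.03523) and Sox11 2.70-fold (log2 1.43, SE 0.34, adjusted p = 0.006977).

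Sall2 and Pou3f1 did not pass the test between these groups. All d3con libraries exceeded the d0con libraries for Sall2, and its log2 fold change was 1.42 with a 95% interval of 0.07 to 2.76 (adjusted p = 0.07252). For Pou3f1 the log2 fold change was -2.06 with an interval of -5.14 to 1.02 (adjusted p = 0.2284). That value rested on 1 library: without d3con replicate 2 the log2 fold change of Pou3f1 was -5.75 (adjusted p = 0.0038). Only clone C59 then remained in d3con. Without d0con replicate 2, which leaves 1 library in its group, the adjusted p was 0.07035 for Zic5, 0.05236 for Sox11 and 0.129 for Sox3. For Sox3 it was also 0.1649 without d0con replicate 1 and 0.09284 without d3con replicate 1. Genes of chromosome 14, which carries Sall2, Zic2 and Zic5, were by their median 0.185 log2 units higher in d0con replicate 1 than in replicate 2, against -0.045 to 0.017 for the other autosomes, and its part in these values was not tested. The 10 fibroblast feeder markers summed to 15.9 and 18.9 TPM in d0con and 73.4 to 320 TPM in d3con, with 7 of the 10 called higher, and their part was not tested either. The list is not confined to feeders. In d2-FVFn, grown without them, it summed to 21.6 and 24.8 TPM, mostly Mmp2 (18.6 and 20.65 TPM).

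The second comparison asked the same in cells without Foxa2. From d0ko to d3ko 3 of the 7 rose (Zic2, Zic5 and Sox11) and Utf1 fell, where 17.3% of all genes tested were called, 11.6% higher and 5.72% lower. Zic2 rose 8.07-fold (log2 3.01, SE 0.72, adjusted p = 0.01459), Zic5 5.71-fold (log2 2.51, SE 0.50, adjusted p = 0.007303) and Sox11 3.51-fold (log2 1.81, SE 0.34, adjusted p = 0.005895). Utf1 fell by 1.92 on the log2 scale (SE 0.64, adjusted p = 0.04898), which is 3.79-fold.

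The Utf1 call in this comparison lay at the threshold, and it was lost in 8 of 16 alternatives (log2 fold changes of -2.82 to -1.47, adjusted p from 0.005339 to 0.3086). The d3ko libraries lay wholly above d0ko for 4 of the 7 factors (Sox3 and the 3 called) and wholly below for Utf1 and Pou3f1, as for 36.6% and 21.4% of all genes tested. Sox3 had a log2 value of 1.89 (SE 0.72, adjusted p = 0.07561). With the clone as a block it was called at 2.02 (adjusted p = 0.03858). Genes of the X chromosome, which carries Sox3, were by their median 0.289 log2 units higher in d3ko replicate 2 than in replicate 3, against -0.439 to 0.099 for the autosomes. They were 0.147 higher in replicate 1 than in replicate 3, against -0.056 to 0.112, and the part of this in the Sox3 values was not tested. Pou3f1 (log2 fold change -1.38, interval -4.44 to 1.67) and Sall2 (0.74, interval -0.58 to 2.05) did not pass. Without d3ko replicate 2 the log2 fold change of Sall2 was -0.15. All 4 calls were lost when either d0ko library was left out, which leaves 1 library in that group. The feeder markers summed to 42.5 and 143 TPM in d0ko, and 3 of the 10 were called higher in d3ko, which was not tested further. The changes in con and in ko cells rest on different libraries, and whether they differ was tested by the interaction of genotype and day.

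The comparison of d3ko with d3con asked which factors depend on the Foxa2 genotype in Venus-positive cells, and it shares its libraries with the comparisons across days. Utf1 was the 1 factor of the 7 that was called, where 8.26% of all genes tested were, 4.75% higher and 3.51% lower. It was 9.81-fold higher in d3ko (log2 fold change 3.30, SE 0.64, adjusted p = 0.01676), with no overlap of the 3 libraries of each group, which held for 11.5% of all genes tested in this direction. None of the 7 lay wholly lower in d3ko, as 12.3% of all genes did. The log2 fold change of Utf1 stayed between 2.40 and 4.19 in 16 alternatives, but the call was lost in 7 of them. Among these were leaving out d3con replicate 1 (adjusted p = 0.07321) or d3con replicate 3 (0.07832) and summing the replicates that share a clone (0.1293). The naive marker sum moved with Utf1 in the d3ko libraries, lowest in replicate 2 and highest in replicate 3 for both, and 11 of the 12 naive markers were called higher in d3ko. In d3con the naive sum was 172, 111 and 166 TPM, so replicate 2, which was highest for Utf1, was lowest for the naive markers. Its part in the Utf1 difference was not tested.

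The other 6 factors did not pass between d3ko and d3con, and the intervals show how much was resolved. For Sox11 the log2 fold change was 0.25 with an interval of -0.39 to 0.89, and for Zic5 it was 0.19 with an interval of -0.70 to 1.09. A 2-fold difference in either direction was thus outside the interval for Sox11, and for Zic5 it was outside only toward lower levels in d3ko. For Zic2 (-0.42, interval -1.66 to 0.82), Sox3 (-0.68, interval -2.0 to 0.64) and Sall2 (-0.90, interval -2.05 to 0.25) changes of over 2-fold toward lower levels in d3ko lay within the interval. For Pou3f1 (0.08, interval -2.72 to 2.89) almost nothing was resolved.

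The values of Pou3f1 and Sall2 in this comparison rested on replicate 2, from clones C63 and C17. It was the highest of the 3 libraries in both genotypes for 5 of the 7 factors (Pou3f1, Sall2, Zic2, Zic5 and Sox11), against 19.1% of all genes tested. Without replicate 2 of both groups Pou3f1 was called higher in d3ko (log2 fold change 2.996, adjusted p = 0.03355) and Sall2 lower (-1.62, adjusted p = 0.01258). Only clone C59 then remained in d3con and only C9 in d3ko, so the genotypes were compared through 1 clone each. Calls over all genes also rose in this setting. Without d3con replicate 2 alone Pou3f1 was called at 3.77 (adjusted p = 0.04462). Without d3ko replicate 2 alone Pou3f1 was not called, at -0.71, and Sall2 was, at -1.79 (adjusted p = 0.007594). Each of these fits also left 1 clone in the group that lost a library. The summed level of 10 mesoderm markers was also highest in replicate 2, at 194 TPM in d3con and 409 TPM in d3ko, against 36.4 to 80.4 TPM in the other 4 libraries. Msgn1 was listed at 0 in all d3con libraries. The 10 fibroblast feeder markers summed to 320, 73.4 and 235 TPM in d3con and 320, 150 and 388 TPM in d3ko, with all 10 above 0. The sum was lowest in replicate 2 of both, but not every marker followed it. Pdgfrb was highest in replicate 2 of both (7.52 TPM in d3con and 18.7 TPM in d3ko), and Mmp2 in replicate 2 of d3con. Dcn, Lum, Postn, Pdgfrb and Mmp2 were lowest in replicate 3 of d3ko. The part of either in the values of the factors was not tested.

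**Figure D2:**
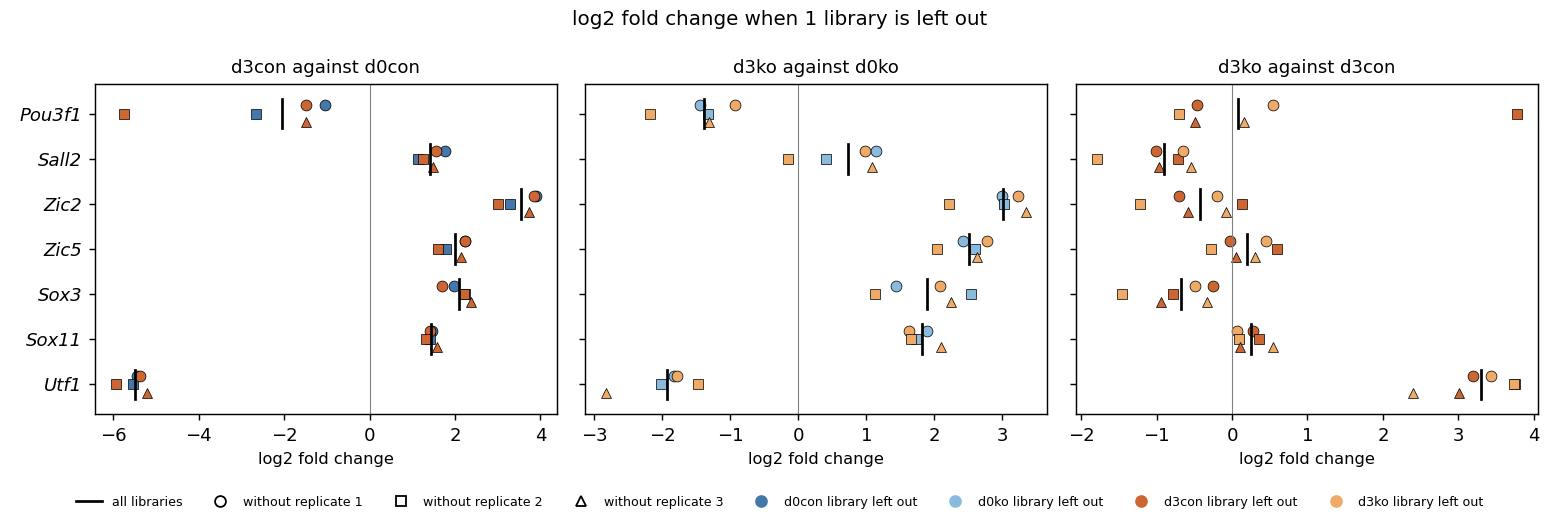
log2 fold change of each factor in the comparisons of day 3 with day 0 and of d3ko with d3con, with all libraries (black line) and with each library left out in turn (shape gives the replicate number, colour the group). Pou3f1 in d3ko against d3con moves from 0.08 to 3.77 without d3con replicate 2, while Utf1 stays on 1 side of 0 in all 3 panels.

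Before differentiation no factor separated the genotypes by the test. Between d0ko and d0con 0 of 13899 genes were called by edgeR (0%), with 195 genes and 0 of the 7 factors at an unadjusted p under 0.05, and 1 gene called by DESeq2. None of the 7 had both d0ko libraries above both d0con libraries, as 28.9% of all genes had. Utf1 had both below, as 14.9% of all genes had, with a log2 fold change of -0.28 and an interval of -1.87 to 1.32. The log2 fold changes of the other factors lay between -0.59 (Pou3f1) and 0.12 (Zic2).

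The interaction, which tests whether the change with differentiation differs between genotypes, was called by edgeR for 0 of 13899 genes (0%), with 1840 genes and 1 of the 7 factors at an unadjusted p under 0.05, and 565 genes called by DESeq2. That factor was Utf1, with an interaction of 3.57 log2 units, positive where the fall is smaller in ko cells (SE 0.95, interval 1.43 to 5.71, unadjusted p = 0.004247, adjusted p = 0.178). DESeq2 called it (adjusted p = 0.002368), and so did edgeR without d3ko replicate 2 (4.02, adjusted p = 0.008674), which leaves only clone C9 in d3ko. The adjusted p over all 20 alternatives ranged from 0.002368 to 0.6328. For the other 6 factors the interaction lay between -0.68 (Sall2) and 0.68 (Pou3f1), with adjusted p from 0.777 to 0.9586.

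The doxycycline series asked how cells with and without the Foxa2-Venus fusion differ in ESC medium. Both groups received doxycycline and were split by Venus afterwards. What Foxa2 changed and what already differed between the cells can therefore not be told apart. Pou3f1, Sall2 and Zic5 were lower in d2-FVFp than in d2-FVFn, 3 of the 6 factors that could be tested, where 8.43% of 12943 genes were called, 6.96% higher and 1.47% lower. Pou3f1 was 3.04-fold lower (log2 fold change -1.61, SE 0.16, adjusted p = 0.002127), Sall2 2.85-fold lower (-1.51, SE 0.27, adjusted p = 0.0125) and Zic5 2.39-fold lower (-1.26, SE 0.22, adjusted p = 0.01244). Both d2-FVFp libraries lay below both d2-FVFn libraries for these 3 and for Sox11, as for 27.4% of all genes tested, and above them for Sox3, as for 35.1%.

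The call of Pou3f1 held in all 10 alternatives (log2 fold changes of -1.69 to -1.50). Without d2-FVFn replicate 2 the adjusted p was 0.07777 for Sall2 (-1.07) and 0.09879 for Zic5 (-1.10), and without d2-FVFn replicate 1 it was 0.05498 for Zic5 (-1.36). Zic2, with 15 and 41 reads in d2-FVFn and 9 and 7 reads in d2-FVFp, was under the filter on low counts and was not tested. Sox3 (0.46, interval -0.36 to 1.28), Sox11 (-0.27, interval -0.67 to 0.12) and Utf1 (-0.01, interval -0.53 to 0.50) did not pass. For Sox11 and Utf1 a 2-fold change lay outside the interval. The naive marker sum did not separate the groups, at 1492 and 959 TPM in d2-FVFn and 1352 and 930 TPM in d2-FVFp. Of the 12 naive markers, however, 2 were called higher in d2-FVFp and 0 lower. The endoderm marker sum did separate the groups, at 10.2 and 8.67 TPM in d2-FVFn and 31.9 and 22.6 TPM in d2-FVFp. Of the 6 endoderm markers that could be tested, 5 were called higher. The sum of the 8 neuronal markers also separated the groups, at 224 and 238 TPM in d2-FVFn and 133 and 156 TPM in d2-FVFp. Of the 7 tested, 0 were called. Most of this sum was Stmn2 (127 and 134 TPM in d2-FVFn) and Tubb3 (90.3 and 96.6 TPM in d2-FVFn). Both were also abundant in ESCs at day 0, with d0con means of 91.2 and 98.8 TPM. Map2 and Dcx went the other way, with higher means in d2-FVFp. The part of these marker lists in the values of Pou3f1, Sall2 and Zic5 was not tested.

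**Figure D3:**
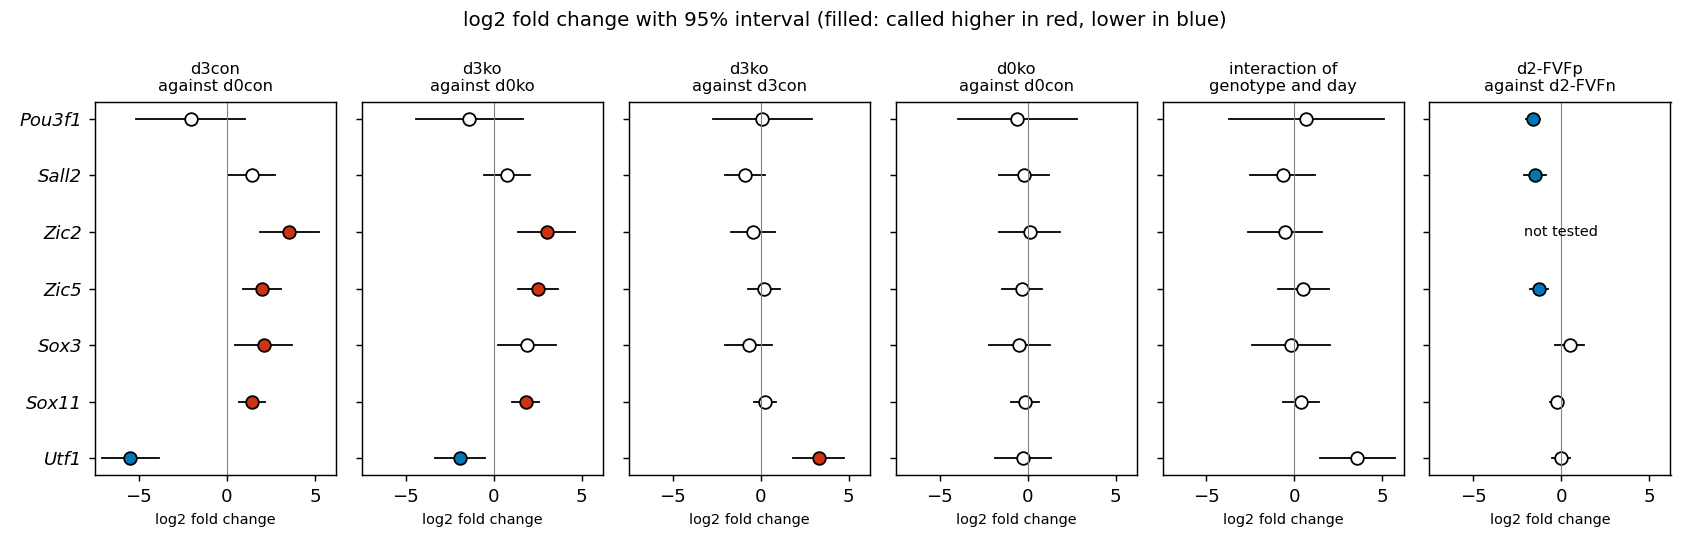
log2 fold change (point) with its 95% interval (line) for the 7 factors in the 5 comparisons of groups and in the interaction of genotype and day, with filled points for those called higher (red) or lower (blue). Utf1 is the 1 factor filled in d3ko against d3con, and Pou3f1, Sall2 and Zic5 are those filled in d2-FVFp against d2-FVFn.

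The 7 factors were set beside their closest relatives. Pou3f1 was the 1 member of its family above background: Pou3f2, Pou3f3 and Pou3f4 had group means of 0 to 0.245 TPM and were under the filter on low counts. Zic1 and Zic4 were likewise at 0 to 0.03 TPM in their group means.

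Among the SoxB1 genes Sox3 and Sox2 moved in opposite directions with differentiation in the controls. Sox2, a core pluripotency factor, fell from 86.7 to 5.04 TPM (log2 fold change -4.31, SE 0.69, adjusted p = 0.001178) while Sox3 rose, and Sox1 stayed under the filter on low counts. In d3ko the mean of Sox2 was 63.4 TPM, 3.66 log2 units above d3con (SE 0.64, adjusted p = 0.01359), where Sox3 was not called. The 3 d3ko libraries held 89.3, 14.7 and 86.1 TPM of Sox2, so replicate 2 stood apart. Among the SoxC genes Sox4 rose with Sox11, by 4.10 log2 units from d0con to d3con (adjusted p = 0.001019) and by 2.75 from d0ko to d3ko (adjusted p = 0.009573). Sox12 passed the adjusted p in both (0.03931 and 0.03341) with changes of under 2-fold (0.81 and 0.96 on the log2 scale).

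Of the 4 Sall genes 1 was called in each comparison across days and between the day 3 genotypes. Sall2 was far less abundant than Sall4, a zinc finger factor of pluripotent cells, at 5.41 against 333 TPM in d3con. Sall4 was lower in d3ko than in d3con (log2 fold change -1.14, SE 0.19, adjusted p = 0.01229), a comparison in which Sall2 (-0.90) was not called. Sall4 was also called lower from d0ko to d3ko (-1.02, adjusted p = 0.007853). Sall3 was called lower from d0con to d3con (-1.90, adjusted p = 0.03063) and Sall1 was called in none of the comparisons of day or genotype.

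**Figure D4:**
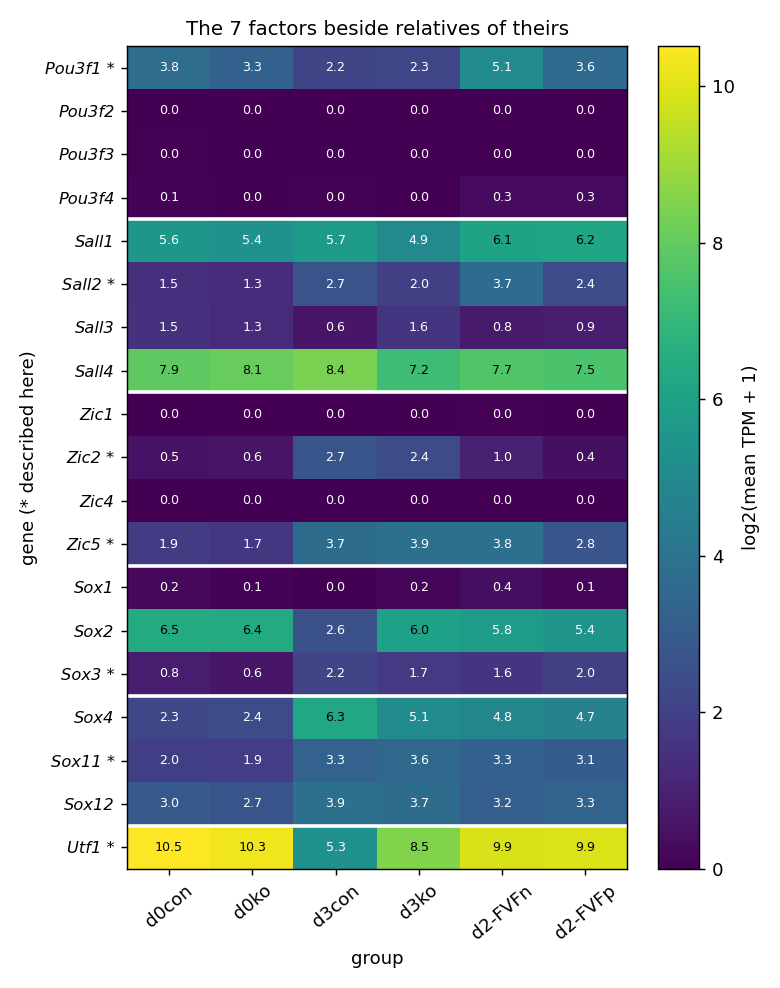
log2(mean TPM + 1) of the 7 factors (marked with a star) and relatives of theirs in the 6 groups, where each cell gives the value and the colour. Sox2 and Sall4 are the most abundant genes plotted of the SoxB1 and Sall families in ESCs, while Pou3f2, Pou3f3, Pou3f4, Zic1 and Zic4 are near 0 throughout.

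A wider list of 20 formative epiblast genes moved in both directions. From d0con to d3con 5 of them rose and 7 fell (median log2 fold change -0.59, against 0.07 over all genes tested, of which 20.6% rose and 14.6% fell). The signalling ligands Fgf8 (10.08, adjusted p = 0.0003347) and Fgf5 (6.80, adjusted p = 0.001745) rose, and Pou5f1 (-3.53, adjusted p = 0.002553) and Etv5 (-2.92, adjusted p = 0.001289) fell. From d0ko to d3ko 3 rose and 6 fell (median -0.66, against 0.07), where 11.6% of all genes rose and 5.72% fell. Fgf8 (9.98, adjusted p = 0.001211) and Fgf5 (4.55, adjusted p = 0.01325) were among those that rose. Sall4 (-1.02, adjusted p = 0.007853) and Dnmt3b (-1.47, adjusted p = 0.01109) were among those that fell. Between d3ko and d3con 3 were higher and 3 lower (median -0.01, against 0.02), where 4.75% of all genes were higher and 3.51% lower. Etv5 (2.11, adjusted p = 0.02089) was among the higher, and the DNA methyltransferase Dnmt3b (-2.17, adjusted p = 0.009852) among the lower. In d2-FVFp 7 of the 19 genes tested were lower and 0 higher (median -0.48, against 0.01 over all genes tested, of which 1.47% were lower and 6.96% higher), with Dnmt3b (-1.36, adjusted p = 0.00197) and Dnmt3a (-1.08, adjusted p = 0.00573) among them, beside Pou3f1, Sall2 and Zic5 of the 7 factors.

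Of 23 early neural plate genes 12 could be tested, and Sox1, Pax3, Zic1, Zic4, Hes5, Six3, Rax, Lhx2, Pou3f2, Neurog2 and Olig3 were under the filter on low counts. From d0con to d3con 6 rose and 3 fell (median 1.62, against 0.07 over all genes tested, of which 20.6% rose and 14.6% fell). The adhesion gene Cdh2 (5.66, adjusted p = 0.0005716), which mesendoderm cells also express, and Irx3 (8.09, adjusted p = 0.001901) rose, and Gbx2 (-6.56, adjusted p = 0.0007078) fell with Sox2. From d0ko to d3ko 4 rose and 2 fell (median 0.28, against 0.07, with 11.6% and 5.72% of all genes), with Cdh2 (3.45, adjusted p = 0.006814) and Ncam1 (1.75, adjusted p = 0.002831) among the higher and Pax6 (-2.70, adjusted p = 0.004559) among the lower. Between d3ko and d3con 3 were higher, Gbx2 (4.35, adjusted p = 0.01718) among them, and 2 lower, Irx3 (-4.29, adjusted p = 0.02216) and Sox21 (-4.21, adjusted p = 0.01072). The median of the list was 0.07, against 0.02 over all genes, of which 4.75% were higher and 3.51% lower. In d2-FVFp 2 of 11 tested were higher, Sox21 (2.94, adjusted p = 0.003382) and Irx3 (2.11, adjusted p = 0.03454), and 0 lower (median 0.02, against 0.01, with 6.96% of all genes higher and 1.47% lower). Of the 8 neuronal markers 6 could be tested across days, since Dcx and Rbfox3 were under the filter on low counts. Of these 6, 0 rose and 3 fell from d0con to d3con, and 0 rose and 2 fell from d0ko to d3ko.

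The shapes of the 7 profiles over the 10 day 0 and day 3 libraries were compared as the root mean square difference of log2(TPM + 1) after centring each on its own mean. Zic2 and Zic5 were the closest of the 21 pairs, at 0.307, followed by Sall2 and Sox3 at 0.412. Utf1 was far from all others, at 1.75 (Pou3f1) to 3.23 (Zic2). Low genes move little on this scale, and all pairs share the same libraries.

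Among 10765 other genes the nearest profile was Gdf3 for Utf1 (0.399), Lrrc18 for Zic2 (0.156), Man1c1 for Zic5 (0.174), Cand2 for Sall2 (0.144), Ccdc159 for Sox3 (0.210), Arhgef17 for Sox11 (0.179) and Mup6 for Pou3f1 (0.501). The second nearest were Zfp936 (0.402), Arid3b (0.187), Pcdhgc4 (0.179), Smad5 (0.188), Grcc10 (0.213), 9430020K01Rik (0.194) and Snord88c (0.511), in the same order. Over all 14 libraries 0 of these 2 neighbours remained among the 10 nearest for 5 of the factors, 1 remained for Zic2 and both remained for Utf1. Snord88c held 0 to 2 expected counts in each of the 10 day 0 and day 3 libraries, so its closeness to Pou3f1 rests on very few reads.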

How the data were processed

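RNA from sorted cells was made into libraries with SMART-Seq v4 and MicroPlex v2 reagents, and the authors aligned the reads to mm10 with STAR and quantified them with RSEM (versions not given in the sources used here). The deposited expected counts are RSEM estimates of reads per gene that share multi-mapping reads, and the deposited TPM values are scaled by the authors for length and library total. Effective lengths in the deposited tables show 75-base reads in replicate 1 of d3con and d3ko and 50-base reads elsewhere. FPKM values were not used. Groups follow the sample titles, and clones follow names attached to the samples and the study's methods.

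Expected counts were rounded. Genes with at least 1 CPM in at least 2 libraries were tested with edgeR 4.0.16 (R 4.3.3, TMM, quasi-likelihood F test), with Benjamini-Hochberg adjustment over all genes. The 10 day 0 and day 3 libraries shared a fit, and the 4 doxycycline libraries had their own. A gene was called when its adjusted p was under 0.05 and its level changed by over 2-fold. Standard errors are the log2 fold change divided by the root of F, and intervals are 95%. DESeq2 1.42.0 and other settings were alternatives, and the code was tested on simulated data. The study's own comparisons used DESeq2 on pairs of groups.

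All 7 factors were named in each comparison, with the 2 called genes of highest mean TPM per list, direction and comparison, and the 2 nearest profiles among genes at 5 TPM in at least 2 libraries. Other genes named (relatives of the 7 and the untested genes) were added for completeness of a family or list. The factors and lists were chosen with earlier results of these data known. Positions are RefSeq GRCm38, matched for 93.7% of symbols. Same-numbered libraries of a genotype share a clone, so clone was tried as a block. Deviations from the group means correlated at -0.086 to 0.175 between day 0 and day 3 libraries of the same clone. A fractional count, which marks shared reads, occurred in 1 (Zic2) to 9 (Sox11, Utf1) of the 14 libraries. A gene of the lists is not reported here.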

Additional observations from a re-analysis of the deposited data

Results flagged for a closer look

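The interaction of genotype and day for Utf1 was 3.57 log2 units. It is listed because Utf1 lay wholly lower in d0ko than in d0con and wholly higher in d3ko than in d3con. The change with differentiation was -1.92 in ko cells and -5.49 in con cells. For the interaction edgeR gave an unadjusted p of 0.004247 and an adjusted p over all genes of 0.178, so it was not called.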

How the results depend on the processing

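Of the 7 factors, 5 were called from d0con to d3con, with 2 to 6 when 1 library was left out and 2 in a test against a 2-fold change. From d0ko to d3ko 4 were called, with 0 to 5 and 0 in the same settings. Between d3ko and d3con 1 was called, with 0 to 2 when 1 library was left out. It was 0 in a test against a 2-fold change, in a fit of only the 2 groups, with clone-mates summed and without replicate 1 of both groups (the 75-base libraries), and 3 without replicate 2 of both. The interaction had 0, with 1 under DESeq2 and without replicate 2 of both, and 0 to 1 when 1 library was left out. The doxycycline comparison had 3, with 1 to 3 and 1 in a test against a 2-fold change. The comparison of d0ko with d0con had 0 in all alternatives. The cause of these shifts was not tested, beyond the fewer libraries of some fits. Fits without replicate 2 of a day 3 group also leave 1 clone in that group.

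Replicate numbers pair no clones across genotypes, and day 3 libraries of the same number correlated at 0.617, 0.284 and -0.002 in their deviations. In the doxycycline series d2-FVFn and d2-FVFp libraries of the same number correlated at 0.401, and those of different number at -0.401. The main fit of that series had no block. Fits blocked by replicate number called 5, 4, 0 and 0 factors in the first 4 comparisons in the order above, and 3 in the doxycycline series. Under this block Utf1 lost its call in d3ko against d3con (2.996, adjusted p = 0.05224) and from d0ko to d3ko (-2.32, adjusted p = 0.0691), and Sox3 gained it in the latter (2.16, adjusted p = 0.0384).

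Signs turned only for values that were not called with all libraries. The lowest and highest log2 fold changes with 1 library left out were -0.15 and 1.15 for Sall2 from d0ko to d3ko (-0.15 also without replicate 2 of both). Between d3ko and d3con they were -0.71 and 3.77 for Pou3f1 (-0.15 with clone-mates summed), -1.22 and 0.13 for Zic2, and -0.28 and 0.60 for Zic5. Between d0ko and d0con they were -1.18 and 0.42 for Pou3f1, -0.63 and 0.13 for Sall2, and -0.14 and 0.45 for Zic2. For the interaction they were -0.34 and 4.37 for Pou3f1, -1.34 and 0.012 for Zic2, and -0.99 and 0.44 for Sox3 (0.092 with clone-mates summed, 0.41 without replicate 1 of both). For Utf1 in the doxycycline series they were -0.42 and 0.33.

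Over all genes, calls between d3ko and d3con numbered 1148, with 80 to 2249 when 1 library was left out, 67 in a fit of only the 2 groups, 1 with clone-mates summed, 1 without replicate 1 of both and 2572 without replicate 2 of both, and 284 in a test against a 2-fold change. That test left 2593 of 4890 from d0con to d3con, 484 of 2408 from d0ko to d3ko and 296 of 1091 in the doxycycline series. From d0ko to d3ko 667 to 2860 were called when 1 library was left out, 1345 in a fit of only the 2 groups and 4169 without a fold minimum. In the doxycycline series 562 to 893 were called when 1 library was left out and 2139 without a fold minimum. The interaction had 0, with 565 under DESeq2, 0 to 1118 when 1 library was left out, 1628 without replicate 2 of both, 16 without a filter on low counts, 3 with the clone as a block and 1 with median-of-ratios scaling. Between d0ko and d0con DESeq2 called 1. With log2(TPM + 0.1) in place of log2(TPM + 1), 0 of the 2 nearest profiles of Zic2 and of Sox3, 1 of those of Zic5, Sox11 and Utf1, and both of those of Pou3f1 and Sall2 remained among the 10 nearest. Over all 14 libraries 0 remained for Pou3f1, Sall2, Zic5, Sox3 and Sox11, 1 for Zic2 and 2 for Utf1, so the neighbours depend on both choices. Depth limits Zic2 and Sox3 most, and a doxycycline difference in Zic2 was not testable at 7 to 41 reads.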

Other observations

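The balance of the neighbouring genes Zic5 and Zic2 differed between states. The TPM of Zic5 was 6.02 and 6.70 times that of Zic2 in d0con and 4.42 and 4.83 times in d0ko. It was 2.52, 1.94 and 2.26 times in d3con and 2.92, 2.75 and 5.72 times in d3ko. In the doxycycline line it was 20.6 and 11.03 times in d2-FVFn and 15.2 and 19.96 times in d2-FVFp, resting on 7 to 41 reads of Zic2 per library. These ratios were chosen after the values were seen and were not tested.

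The summed TPM of the 7 factors was carried by Utf1 to 98.2% to 99.0% at day 0, to 43.2% to 50.9% in d3con and to 62.99% to 96.5% in d3ko. Without Utf1 the sum was 29.5 to 58.5 TPM in d3con and 25.4 to 60.4 TPM in d3ko, in both genotypes highest in replicate 2.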
